A study of Homo sapiens with 12 samples.

Results

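The comparison described here set 2 human cell lines beside each other while both carried the same knockdown. MUTZ-1 cells with a short hairpin RNA (shRNA) against NUDT21 were compared with SKM-1 cells with an shRNA against NUDT21, 3 libraries in each line. These 6 libraries were chosen by the line and the shRNA in their labels, out of 12 RNA-seq libraries in the series. The other 6 libraries, 3 per line with a control shRNA, served to show which line differences were also present in libraries without the knockdown. They also entered the filter on low counts, the scaling and the fit behind the p-values. Both lines are labelled as marrow-derived cells of myelodysplastic syndrome, a clonal disorder of blood formation, and the study asked what NUDT21 does in the transformation of that disease. Cells of every group grew in 1640 medium with fetal bovine serum and antibiotics. The control groups are labelled WT and sh control, and the knockdown groups shNUDT21. Column names carry the same tag, sh1, for both knockdown groups, so that each line was represented by a single knockdown label, and the vector and the time after its introduction are not stated in the sources used here. Each line comes from a different patient and had its own genome, so that a difference between the lines cannot be told apart from a difference between the persons of origin. Lines were assigned from the sample titles, because the series' design text gives the name MUTZ-1 in both places where a line is first named.

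NUDT21 encodes the RNA-binding subunit of cleavage factor Im, the complex with CPSF6 and CPSF7 that helps to choose where a transcript is cut and polyadenylated. Blood lineages are set by small groups of transcription factors. PAX5 and EBF1 commit progenitors to the B lineage and switch on the B-cell receptor chains. GATA1, TAL1 and KLF1 switch on globins, heme synthesis and the red cell membrane, and monocytic cells depend on SPI1 and the receptor CSF1R.

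Marker genes were read first as a check of the labels, in CPM, read counts scaled to the library total after trimmed-mean adjustment. In the libraries labelled MUTZ-1, the summed level of 6 B-lineage markers, PAX5, CD79A, CD79B, EBF1 and VPREB1 among them, ran from 1615 to 1660 CPM, against 1.62 to 2.69 CPM in the libraries labelled SKM-1. The 5 erythroid markers, with GATA1, KLF1, HBG1 and EPOR among them, summed to 9.42 to 10.6 CPM in MUTZ-1, nearly all of it from EPOR, and 1104 to 1245 CPM in SKM-1. SKM-1 is known as a line of monoblastic leukaemia that followed myelodysplastic syndrome. Its 4 monocyte markers (CD14, LYZ, CSF1R and ITGAM) summed to only 31.3 to 32.1 CPM, most of it from LYZ. CD14 was at 0.0626, 0.179 and 0.124 CPM and CSF1R at 0, 0.120 and 0 CPM in the 3 SKM-1 libraries. In MUTZ-1 the monocyte markers summed to 0.833 to 1.02 CPM. The 3 epithelial markers (EPCAM, CDH1 and KRT19) summed to 206 to 207 CPM in SKM-1, nearly all of it from KRT19 and EPCAM. In MUTZ-1 these 3 summed to 0.0636 to 0.293 CPM. Fibroblast markers reached at most 15.7 CPM and granulocyte markers at most 0.299 CPM in any of the 6 libraries, and MPO and CD34 had no count in either group. T-cell markers summed to 4.75 to 6.84 CPM in MUTZ-1 and 2.54 to 3.77 CPM in SKM-1. Of 3 megakaryocyte markers, PF4 and GP9 were not among the genes given. The third, ITGA2B, was at 0.318 to 0.644 CPM in MUTZ-1 and 5.09 to 7.14 CPM in SKM-1. Monocyte markers were thus near 0 or low in the SKM-1 libraries and erythroid ones high, and the MUTZ-1 libraries held B-lineage markers. Whether the cells were the named lines was not tested, and the groups are called by their labels throughout.

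The 6 knockdown libraries held 15843012 to 17216597 counts, and their replicates differed by more than sampling noise. Nothing in the labels says that replicates came from separate cultures, so p-values measure only how these libraries vary, which may be technical variation. Values are from bulk RNA, in which fewer cells of a type and less RNA per cell cannot be told apart. NUDT21 itself (chromosome 16) was close in the 2 knockdown groups, at 135, 136 and 142 CPM in MUTZ-1 and 131, 132 and 129 CPM in SKM-1. In the control libraries it was at 301, 297 and 301 CPM and 322, 336 and 343 CPM. Every knockdown library was thus below every control library of its line. The knockdown groups did not overlap, and the log2 difference, MUTZ-1 minus SKM-1, was 0.08 ± 0.03 (SE) with an adjusted p of 0.0149 in the quasi-likelihood test of edgeR with adjustment after Benjamini and Hochberg, the test behind every p-value here. That call was lost with size factors in place of trimmed means, at an adjusted p of 0.251, and without the third MUTZ-1 knockdown library, at 0.128. CPSF6, the larger partner of NUDT21, was at 416, 424 and 409 CPM in MUTZ-1 and 292, 284 and 279 CPM in SKM-1, a log2 difference of 0.55 ± 0.03. CPSF7, the alternative partner, was 0.28 higher in MUTZ-1, while in the control libraries it had been 1.25 higher. Of 22 factors of mRNA 3′ end processing, all tested, 13 were higher in MUTZ-1 and 6 in SKM-1, but none reached 2-fold, and their median difference was 0.14.

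A principal component analysis of the 6 knockdown libraries placed 98.96% of the variance on the axis that separated the lines. Of 13625 genes tested, 11993 differed between the lines at an adjusted p under 0.05, which is 88.0% of them. MUTZ-1 was higher for 5646 genes (41.4%) and SKM-1 for 6347 (46.6%). A difference of at least 2-fold was seen for 6153 genes (45.2%), 2749 higher in MUTZ-1 (20.2%) and 3404 higher in SKM-1 (25.0%). At 8-fold or more these became 3191 genes (23.4%), 1114 for MUTZ-1 (8.18%) and 2077 for SKM-1 (15.2%). The 3 libraries of MUTZ-1 lay above all 3 of SKM-1 for 41.1% of the genes and below them for 46.2%, and the ranges overlapped for 12.6%. With so many calls in the background, a gene list is read here by its 2-fold counts and its median log2 difference, beside a median of -0.08 over all genes tested.

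A line difference was said to stand when it passed the test with at least 2-fold in the same direction both after knockdown and in the control libraries. The knockdown and control comparisons share no library, but both come from the same fit to all 12 libraries. In the control libraries, 2189 genes were at least 2-fold higher in MUTZ-1 (16.1%) and 4034 in SKM-1 (29.6%). A total of 4205 differences stood, 30.9% of the genes tested, and these were 68.3% of the 2-fold differences after knockdown and 67.6% of those in the control libraries. They comprised 1462 genes higher in MUTZ-1 (10.7%) and 2743 higher in SKM-1 (20.1%). Of the 2-fold differences after knockdown, 80.6% of those toward SKM-1 and 53.2% of those toward MUTZ-1 stood, and of those in the control libraries 68.0% and 66.8%. The difference between these shares was not tested. The term for the difference of the line differences, knockdown minus control, passed for 9806 genes (72.0%). By that term, 1543 differences were at least 2-fold after knockdown only, 947 of them toward MUTZ-1, and 1487 at least 2-fold in the control libraries only, 675 of them toward MUTZ-1. Another 317 were at least 2-fold in opposite directions, and 302 of these turned toward MUTZ-1. The control and knockdown libraries of SKM-1 differed in many lineage genes, with CD36, KIT, ERG and MYC higher in control and GATA1 and KLF1 in knockdown, by the values given with each gene. Whether both groups came from the same culture or clone was not tested, so that every comparison of a knockdown with a control line difference holds for these libraries and cannot be told apart from a difference between cultures.

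**Figure D1:**
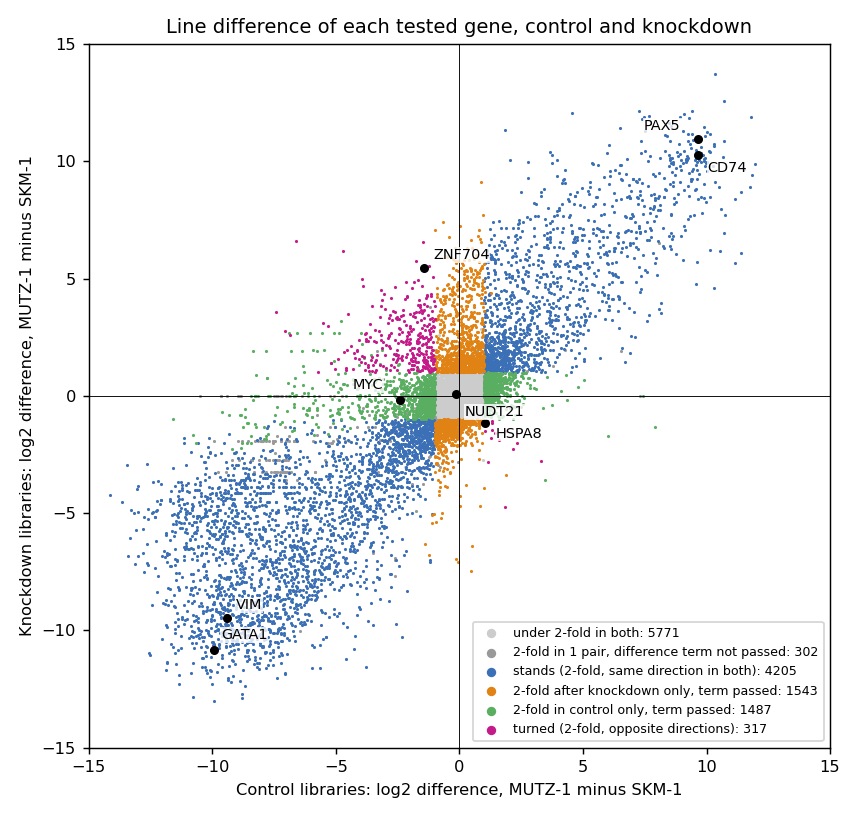
Log2 line difference, MUTZ-1 minus SKM-1, of each of 13625 tested genes in the control libraries (horizontal axis) and in the knockdown libraries (vertical axis), with 1 point per gene coloured by class and named genes in black. The 4205 standing genes (blue) fill the upper right and lower left, PAX5 and GATA1 among them, and the 317 turned genes (pink) lie mostly in the upper left.

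The standing differences did not all have the same size in both pairs. Among 1462 standing genes higher in MUTZ-1, the difference was larger after knockdown for 527 and smaller for 360, and the term did not pass for 575. For the 2743 higher in SKM-1 these numbers were 439, 664 and 1640. A term that did not pass does not show that the difference kept its size. Where a line is near 0 counts the SE of the term is wide, as for GATA1 and KLF1 below. A gene was called restricted to a line when its mean was at least 10 CPM there and under 1 CPM in the other line. After knockdown, 356 genes were restricted to MUTZ-1 and 683 to SKM-1, and in the control libraries 243 and 940. Both pairs shared 193 for MUTZ-1, which is 54.2% of the knockdown and 79.4% of the control genes, and 460 for SKM-1, which is 67.3% and 48.9%. These shares depend on the limits of 10 and 1 CPM. By the 2-fold rule, 316 of the 356 and 682 of the 683 stood. With the other line near 0, this rule can be met although the level in the expressing line changed. For the 356, control MUTZ-1 held a median of 88.3% of the knockdown level, with 231 lower in control and 50 under 10 CPM. For the 683, control SKM-1 held a median of 49.2%, with 500 lower in control and 209 under 10 CPM. These genes were picked by their knockdown level, which favours a lower control level. In the other line, 22 of the 356 and 89 of the 683 had no count at all in 3 libraries.

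B-lineage transcription factors were nearly all higher in MUTZ-1. All 20 listed factors were tested, 18 were at least 2-fold higher in MUTZ-1, none in SKM-1, and 17 stood, with a median log2 difference of 5.23 after knockdown and 4.54 in the control libraries. PAX5, which holds cells in the B lineage (chr9:36833275-37034185, GRCh38), was at 523, 549.6 and 541 CPM in MUTZ-1 and 0.626, 0.179 and 0 CPM in SKM-1. The groups lay far apart, with a log2 difference of 10.94 ± 0.45 (adjusted p = 1.10e-57). EBF1, the factor that acts with PAX5 at the start of the lineage, was at 54.7, 53.8 and 55.3 CPM in MUTZ-1, and SKM-1 held 2 counts in 3 libraries, a ratio of 1333 (95% counting interval 369 to 11012). The intervals of such ratios, and the lower bounds given further on, cover counting error only.

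Not every B-lineage factor was absent from SKM-1. TCF3, the E protein needed before EBF1 acts, was at 943, 983 and 951 CPM against 259, 262 and 255 CPM, a difference of 1.89 ± 0.02. IKZF1, the Ikaros factor of lymphoid progenitors, was 2.45 ± 0.03 higher in MUTZ-1, less than the 4.33 of the control libraries. ETS1, a lymphoid ETS factor, differed by 9.98 ± 0.23 after knockdown and 10.03 without it. BACH2, a repressor that guards B-cell identity, had a larger difference after knockdown, with 6.54 after knockdown against 4.06 in the control libraries. SKM-1 held 47.3, 46.9 and 50.4 CPM in the control and 8.64, 9.15 and 8.25 CPM in the knockdown libraries, and MUTZ-1 801, 804 and 824 CPM after knockdown. LEF1, a Wnt-dependent factor of early B cells, had been nearly equal in the control lines, with a difference of 0.11, and was 2.81 ± 0.05 higher in MUTZ-1 after knockdown.

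B-cell receptor chains and their kinases followed the same direction. Of 22 genes, 19 were at least 2-fold higher in MUTZ-1 and all 19 stood, 1 was higher in SKM-1, and the median difference was 6.34 (5.64 in control). CD79A, a signalling chain of the receptor, was at 321, 337 and 327 CPM in MUTZ-1 and 0.689, 0.120 and 0.0620 CPM in SKM-1. CD79B, its partner, was at 571, 580.5 and 565 CPM and 0.626, 0.359 and 0.372 CPM. The lines did not overlap for either chain, with log2 differences of 10.12 ± 0.39 and 10.29 ± 0.31. The kinases differed in their share with SKM-1. BLK, a kinase of B cells, was at 427 CPM in MUTZ-1 on average and 0.249 in SKM-1, whereas SYK, found in many blood cells, was at 474 and 47.8 CPM. FCRLA, an Fc receptor-like protein of B cells, differed by 9.78 ± 0.29. The exception was PRKCB, a protein kinase C that B-cell receptors use, at 202, 194 and 196 CPM in MUTZ-1 and 667, 667 and 672 CPM in SKM-1. Its difference was -1.76 ± 0.03 after knockdown but 0.43 in the control libraries, and the term between them was -2.19 ± 0.04 (adjusted p = 5.46e-129). MS4A1, the CD20 antigen, kept its direction at a lower level. It was at 23.4, 22.3 and 23.9 CPM in knockdown MUTZ-1 and 187, 191 and 185 CPM in control MUTZ-1, and SKM-1 held 3 counts after knockdown, a ratio of 378 (95% counting interval 129 to 1834).

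Genes of V(D)J recombination and the pre-B receptor, the machinery that assembles antibody genes, had 13 of 14 members tested. Of these, 9 were at least 2-fold higher in MUTZ-1, none in SKM-1, and all 9 stood, with a median of 6.64, or 5.75 with a gene at no count set to its bound. RAG2, which cuts antibody genes together with RAG1, was at 62.6, 59.2 and 63.7 CPM in MUTZ-1 and 0.689, 0.538 and 0.620 CPM in SKM-1. RAG1 was found in both lines, at 12.9, 13.7 and 15.4 CPM and 8.46, 9.15 and 8.06 CPM, and its difference of 0.71 ± 0.12 stayed under 2-fold. MME, the CD10 antigen of early B cells, differed by 7.00 ± 0.09. VPREB3, a chaperone of the pre-B receptor, differed by 8.31 ± 0.48, and that was 3.88 more than in the control libraries. VPREB1, part of the surrogate light chain, was at 2.93, 3.82 and 3.15 CPM in MUTZ-1 and had no count in SKM-1, which makes it at least 53.7-fold higher. IGLL5, at 899 CPM in MUTZ-1 and 0.616 in SKM-1, lies in the lambda light chain locus, and its value is uncertain because it shares sequence there.

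**Figure D2:**
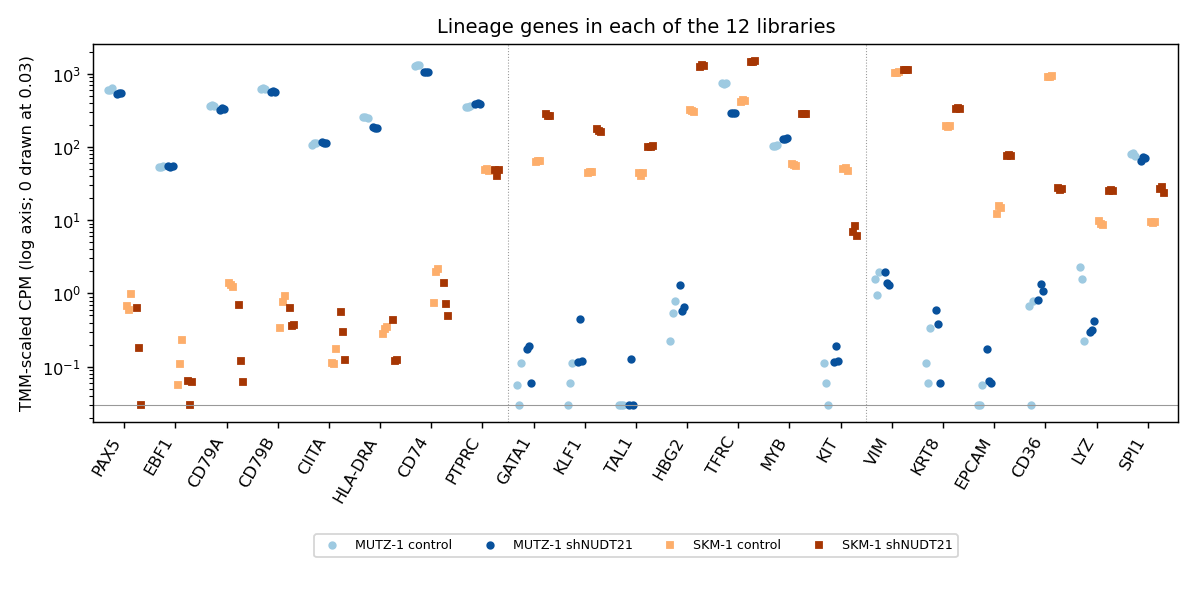
CPM on a log axis (0 drawn at 0.03) of 21 lineage genes in each of the 12 libraries, circles for MUTZ-1 and squares for SKM-1, light for control and dark for knockdown. PAX5 to PTPRC were higher in MUTZ-1 in every library of both pairs, GATA1 to HBG2 higher in SKM-1, whereas TFRC and MYB stood in opposite order in the control and the knockdown pair.

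Antigen presentation by class II molecules, a task of B cells, belonged to MUTZ-1 without exception in its list. All 13 genes were tested, all 13 were at least 2-fold higher in MUTZ-1 and stood, and the median was 9.13, or 8.57 with genes at no count set to their bounds. CIITA, the master activator of class II genes, was at 115, 115 and 113 CPM in MUTZ-1 and 0.564, 0.299 and 0.124 CPM in SKM-1. CD74, the invariant chain that CIITA switches on, was at 1042, 1073 and 1053 CPM and 1.38, 0.718 and 0.496 CPM. The lines were separated by a difference of 10.25 ± 0.27 for CD74, by 8.41 ± 0.36 for CIITA and by 9.62 ± 0.44 for HLA-DRA, the class II alpha chain. HLA-DPA1, another alpha chain, differed by 8.57 ± 0.37. Values of HLA genes are uncertain, since reads of near-identical copies and of alleles far from the reference can be lost in counting.

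Class I genes differed less and less evenly. Of 18 genes, 10 were at least 2-fold higher in MUTZ-1 and none in SKM-1, 8 stood, and the median was 1.71 against 1.61 in the control libraries. HLA-B was at 437, 444 and 434 CPM in MUTZ-1 and 0.752, 0.957 and 0.248 CPM in SKM-1, and HLA-C at 306 and 0.879 CPM on average. ERAP1, which trims peptides for class I, differed by 1.41 ± 0.04.

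On the SKM-1 side, most erythroid transcription factors were higher. Of 14 erythroid transcription factors, all tested, 11 were at least 2-fold higher in SKM-1, 1 was higher in MUTZ-1, 8 of the 11 stood, and the median was -3.97 (-2.93 in control). GATA1, the central erythroid factor (chrX:48786554-48794311), was at 0.176, 0.191 and 0.0595 CPM in MUTZ-1 and 279.8, 268 and 263 CPM in SKM-1, a log2 difference of -10.83 ± 0.55 (adjusted p = 2.56e-179). KLF1, which activates globin and membrane genes, was at 0.117, 0.445 and 0.119 CPM and 175, 165 and 161 CPM. The groups did not overlap for either factor, and the term against the control difference did not pass, at -0.88 ± 1.00 for GATA1 and -0.07 ± 0.94 for KLF1. The levels in SKM-1 were nonetheless higher with the knockdown than without, since control SKM-1 held 62.2, 65.1 and 64.6 CPM of GATA1 and 44.6, 44.8 and 45.8 CPM of KLF1. NFE2, a factor of globin and platelet genes, differed by -9.92 ± 0.40. TAL1, a partner of GATA1, was at 0, 0.127 and 0 CPM in MUTZ-1 and 99.8, 101 and 104 CPM in SKM-1, with 2 counts in MUTZ-1 and a ratio of 2525 (95% counting interval 699 to 20852). LDB1, the bridge between GATA1 complexes at enhancers and promoters, was shared, at 156 CPM in MUTZ-1 and 349 in SKM-1, with a difference of -1.16 ± 0.03 after knockdown and -0.12 in control. IKZF2, a member of the Ikaros family, was the exception toward MUTZ-1, at 63.0, 64.3 and 63.5 CPM against 5.51, 6.22 and 6.20 CPM.

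Promoters were searched for the letters that GATA factors bind, AGATAA or TGATAA on either strand, in windows of RefSeq (GRCh38.p14) from 250 bases before to 50 bases after each start. In 4 erythroid lists (transcription factors, globins, heme synthesis and membrane), 51 tested members were at least 2-fold higher in SKM-1, and 32 of them had 48 windows in the table. The letters were found in 21 of the 48 windows (43.8%), and in 17 of the 32 genes. Among all tested genes with a window, 1411 of 10975 had them. Windows of the same gene can overlap and hold the same match, as for RHD, RHCE and GYPB, so that windows are not independent. Over all 35116 windows the share was 16.3%, over the 16145 windows of tested genes 9.92%, and for genes at least 8-fold higher it was 14.3% in either direction. Members of the 3 B-lineage lists that were at least 2-fold higher in MUTZ-1 held them in 7 of 57 windows (12.3%). The letters of EBF1 sites, TCCC and GGGA with any pair of bases between them on either strand, were searched as well. They were in 1 of those 57 windows (1.75%), against 1.34% of the windows of tested genes. These are matches of letters and not sites shown to be bound, and no match says only that the letters were not in the window.
Shown are the 250 bases before the start of 4 erythroid genes that stood toward SKM-1, each 5′ to 3′ on the minus strand of GRCh38.p14, with the GATA letters of either strand in capitals. They come from KLF1 (chr19:12887202-12887451), ALAS2 (chrX:55030978-55031227), RHAG (chr6:49636840-49637089) and EPOR (chr19:11384315-11384564), and the first capital lies 66, 127, 31 and 78 bases before the start.
KLF1: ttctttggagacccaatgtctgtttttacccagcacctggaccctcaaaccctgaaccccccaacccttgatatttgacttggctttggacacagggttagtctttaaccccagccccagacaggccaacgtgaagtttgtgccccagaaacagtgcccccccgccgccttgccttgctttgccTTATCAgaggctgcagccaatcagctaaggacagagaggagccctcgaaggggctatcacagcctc
ALAS2: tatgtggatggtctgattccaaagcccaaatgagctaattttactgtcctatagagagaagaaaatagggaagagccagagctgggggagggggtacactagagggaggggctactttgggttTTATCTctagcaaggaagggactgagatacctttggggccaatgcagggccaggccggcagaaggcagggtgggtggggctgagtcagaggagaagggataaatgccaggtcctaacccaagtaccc
RHAG: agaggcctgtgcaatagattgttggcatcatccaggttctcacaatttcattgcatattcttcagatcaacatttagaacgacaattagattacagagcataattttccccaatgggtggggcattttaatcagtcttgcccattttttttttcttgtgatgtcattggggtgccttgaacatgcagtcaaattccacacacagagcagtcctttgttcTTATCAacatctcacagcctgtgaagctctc
EPOR: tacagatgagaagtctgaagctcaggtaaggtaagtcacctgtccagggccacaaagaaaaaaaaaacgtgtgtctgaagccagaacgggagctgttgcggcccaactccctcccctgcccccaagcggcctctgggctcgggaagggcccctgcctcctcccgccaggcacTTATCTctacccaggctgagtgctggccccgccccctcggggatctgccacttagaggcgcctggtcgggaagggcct

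Globins, the protein part of hemoglobin, were found in SKM-1. All 10 tested genes of 11 on the list, which also holds a globin chaperone, were at least 2-fold higher in SKM-1, 9 stood, and the median was -10.21 (-10.15 with bounds, -9.11 in control). The embryonic HBE1 was at 1927, 1965 and 1891 CPM in SKM-1 and 1.99, 1.53 and 1.31 CPM in MUTZ-1, a difference of -10.22 ± 0.16, and the term against control, -0.16 ± 0.27, did not pass. The fetal HBG2 was at 1244, 1309 and 1282 CPM in SKM-1 and 1.29, 0.573 and 0.655 CPM in MUTZ-1, and its difference was -9.21 in control and -10.55 after knockdown. The embryonic HBZ was at 536, 573 and 628 CPM in SKM-1 and 0.410, 0.636 and 0.417 CPM in MUTZ-1. No sample of 1 line came near the other for these globins. Per length, in the deposited FPKM, SKM-1 held 3084 of HBE1, 2175 of HBG2 and 1031 of HBG1, and the adult HBB was at 1.40. HBB had no count in MUTZ-1 and 1.06, 0.897 and 0.682 CPM in SKM-1, which makes it at least 14.6-fold higher there. HBG1 and HBG2, like HBA1 and HBA2, are near-identical, so how reads were shared between them is uncertain.

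Heme and iron genes leaned the same way, with smaller steps. Of 14 heme synthesis genes, 7 were at least 2-fold higher in SKM-1, none in MUTZ-1, and 4 stood, with a median of -0.99. ALAS2, the erythroid enzyme of the first step, was at 226, 236 and 218 CPM in SKM-1 and 0.0586, 0.254 and 0.238 CPM in MUTZ-1, a difference of -10.23 ± 0.49. UROD and FECH, enzymes of later steps that all cells use, differed by -3.09 ± 0.04 and -1.36 ± 0.04, and in the control libraries by -1.71 and -0.24. Of 13 tested of 14 genes of iron uptake, storage and export, 9 were at least 2-fold higher in SKM-1 and 6 stood. FTL, the ferritin light chain, was at 402, 383 and 398 CPM in MUTZ-1 and 3370.2, 3437 and 3279.5 CPM in SKM-1, which made it the gene with the largest gap in CPM toward SKM-1. FTH1, the heavy chain, differed by -1.62 ± 0.02 after knockdown and -0.46 in control. TFRC, the transferrin receptor, was 295, 289.6 and 289.8 CPM in MUTZ-1 and 1450.2, 1448 and 1486 CPM in SKM-1. In the control libraries its order was the opposite, at 745, 722 and 741 CPM and 414, 432 and 425 CPM, and the term was -3.12 ± 0.03 (adjusted p = 9.00e-177). SLC40A1, the iron exporter ferroportin, had 1 count in MUTZ-1 and 95.3, 87.5 and 91.7 CPM in SKM-1, a ratio of 4535 (95% counting interval 814 to 179165). NCOA4, which sends ferritin to lysosomes, differed by -1.05 ± 0.03.

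The red cell membrane list, with 25 of 28 genes tested, had 23 at least 2-fold higher in SKM-1, 22 of which stood, and 1 higher in MUTZ-1. Their median was -6.60 (-6.45 with bounds) after knockdown and -6.79 in control. RHAG, the Rh-associated channel whose promoter is shown above, was at 671, 658 and 666 CPM in SKM-1 and 0.410, 0.763 and 0.655 CPM in MUTZ-1. ANK1 and SPTB, ankyrin and spectrin of the membrane skeleton, differed by -4.94 ± 0.06 and -5.72 ± 0.09. EPB41, protein 4.1 of that skeleton, was found in both lines, at 256 and 516 CPM, a difference of -1.01 ± 0.03. EPOR, the erythropoietin receptor, was at 37.4, 36.5 and 32.5 CPM in SKM-1 and 8.49, 8.27 and 9.88 CPM in MUTZ-1. CD47, a surface signal against phagocytosis found on most cells, was the member higher in MUTZ-1, by 1.18 ± 0.04.

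Of the JAK-STAT genes, through which EPOR and other cytokine receptors signal, 7 of 16 tested (17 listed) were at least 2-fold higher in SKM-1 and 4 in MUTZ-1. STAT5A was at 1.41, 2.23 and 1.79 CPM in MUTZ-1 and 523, 503 and 495 CPM in SKM-1, a difference of -8.14 ± 0.16. SOCS2, a feedback inhibitor that STAT5 induces, was at 0.117, 0.445 and 0.179 CPM and 151, 151 and 151 CPM. Both stood, and both differences were larger than in the control libraries, by -2.18 and -2.22. STAT5B and STAT3 differed by -1.42 ± 0.03 and -1.88 ± 0.04. JAK2, the kinase of the erythropoietin receptor, was 6.09, 8.14 and 7.14 CPM in MUTZ-1 and 64.6, 62.6 and 62.8 CPM in SKM-1. On the MUTZ-1 side, STAT6 and IFNAR2, a chain of the type I interferon receptor, were higher by 1.75 ± 0.04 and 2.63 ± 0.05.

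Stem and progenitor factors were mostly higher in SKM-1, with 12 of 17 tested genes (22 listed) at least 2-fold, 10 of which stood, and 1 higher in MUTZ-1. The median was -4.98 (-5.28 with bounds). GATA2, the progenitor GATA factor, was at 0.176, 0.191 and 0.298 CPM in MUTZ-1 and 195, 195 and 193 CPM in SKM-1, a difference of -9.73 ± 0.44. KIT, the stem cell factor receptor, was at 6.83, 8.37 and 6.08 CPM in knockdown SKM-1 and 49.7, 51.1 and 47.4 CPM in control SKM-1, and its difference to MUTZ-1 was -9.57 in control and -5.58 after knockdown. ERG, an ETS factor of stem cells, was at 2.69, 2.27 and 1.43 CPM in knockdown SKM-1 and 62.5, 59.3 and 59.5 CPM in control SKM-1. MEIS1, a HOX cofactor, was at 11.5, 10.5 and 10.2 CPM against 64.3, 65.1 and 65.5 CPM, though the term for the line difference of MEIS1 did not pass. MYB, needed by progenitors of most blood lineages, was -1.11 ± 0.03 after knockdown but 0.87 in control, with SKM-1 at 282, 279 and 281 CPM and MUTZ-1 at 128, 129.5 and 133 CPM. DNMT3B, a DNA methyltransferase, differed by -1.98 ± 0.05. GFI1, a repressor of lymphoid and granulocytic cells, was the member higher in MUTZ-1, by 5.14 ± 0.20.

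HOX genes, which encode position in the embryo and stay active in parts of the blood system, split by cluster. Of 35 tested genes of 41 on the list, PBX cofactors included, 22 were at least 2-fold higher in SKM-1 and 8 in MUTZ-1. In the HOXA cluster 6 of 7 tested genes were higher in MUTZ-1 and none in SKM-1. SKM-1 was higher for 8 of 9 in HOXB, 6 of 9 in HOXC and 7 of 8 in HOXD, and in those clusters 1 gene, HOXC4, was higher in MUTZ-1. HOXB9 was at 0.117, 0 and 0.179 CPM in MUTZ-1 and 198, 191 and 196 CPM in SKM-1, a difference of -10.81 ± 0.65. HOXB2 had a ratio of SKM-1 to MUTZ-1 of 1125 (95% counting interval 311 to 9298), and HOXB3 and HOXB4, found in both lines, differed by -1.71 ± 0.10 and -1.66 ± 0.08. HOXA9, often active in myeloid leukaemia, had 1 and 2 counts in the lines and gives no fold. PBX3, a cofactor, was 3.50 ± 0.12 higher in MUTZ-1. The list's median without bounds was -3.91 after knockdown and -7.44 in the control libraries. With 15 genes at no count set to their bounds, the knockdown median was -1.90. No bounded median was made for the control libraries, so -1.90 and -7.44 are unlike measures. Of the 22 genes toward SKM-1, 21 stood, and of the 8 toward MUTZ-1, 6 stood. The split by cluster was noted after the values were seen.

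Platelet genes were higher in SKM-1 for 10 of 15 tested (25 listed), 9 of which stood, and in MUTZ-1 for 3. The summed level of the list was not higher in SKM-1, at 408 to 414 CPM in MUTZ-1 and 396 to 406 CPM in SKM-1. GP1BB, a chain of the von Willebrand receptor, was at 122, 125 and 126 CPM in SKM-1 and 0.351, 0.382 and 0.476 CPM in MUTZ-1. TUBB1, the platelet tubulin, differed by -8.08 ± 0.55. ITGA2B, the platelet fibrinogen receptor, was low, at 7.14, 6.04 and 5.09 CPM in knockdown and 15.8, 16.4 and 16.1 CPM in control SKM-1. F2R, the thrombin receptor, and RAB27B, a granule protein, differed by -4.79 ± 0.24 and -2.92 ± 0.16. FLI1, an ETS factor of megakaryocytes that B cells also use, was 8.93 ± 0.55 higher in MUTZ-1, and PLEK, a platelet kinase substrate found in lymphoid cells too, 6.84 ± 0.27 higher.

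Most monocyte genes were too low to test, and 9 of 25 passed the filter on low counts. Because a gene passes when only its higher group is expressed, those 9 are no picture of the whole list, and the same holds for every list here of which only some genes were tested. CD33, a myeloid antigen, was at 35.8, 43.8 and 39.6 CPM in SKM-1 and 0.0586, 0.0636 and 0.179 CPM in MUTZ-1. LYZ, lysozyme, was at 24.8, 25.7 and 25.2 CPM and 0.293, 0.318 and 0.417 CPM. CD68, a lysosomal protein of macrophages, differed by -6.09 ± 0.23. CD36, a scavenger receptor found on monocytes, platelets and erythroid precursors, was at 27.2, 25.5 and 26.9 CPM in knockdown SKM-1 against 914, 905 and 931 CPM in control SKM-1. Its difference to MUTZ-1, where it was at 0.820, 1.34 and 1.07 CPM, was -10.82 in control and -4.62 after knockdown. SPI1, the PU.1 factor of monocytes and B cells, was higher in MUTZ-1, at 64.5, 73.5 and 71.1 CPM against 27.0, 28.2 and 23.4 CPM. CTSS, a protease of antigen presentation, and CD86, a costimulator of B cells and monocytes, were also higher in MUTZ-1, CTSS by 2.86 ± 0.11 and CD86 at least 224-fold. CEBPA, a granulocytic factor, was low in both lines, at 6.56, 6.36 and 5.53 CPM in MUTZ-1 and 0.376, 0.299 and 0.310 CPM in SKM-1. PTPRC, the pan-leukocyte antigen CD45, was at 384, 398 and 381 CPM in MUTZ-1 and 48.5, 40.7 and 48.2 CPM in SKM-1, a difference of 3.08 ± 0.04.

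The granulocyte and mast cell list had 12 of 27 genes tested, of which 6 were at least 2-fold higher in SKM-1 and 3 in MUTZ-1. HDC, the histamine enzyme of mast cells and basophils, was at 5.39, 5.44 and 5.15 CPM in knockdown SKM-1 and 0.117, 0 and 0.179 CPM in MUTZ-1, while control SKM-1 held 154, 156 and 157 CPM. PRG2, a granule protein of eosinophils, differed by -3.54 ± 0.22, and FUT4, the enzyme of the CD15 antigen, had a ratio of SKM-1 to MUTZ-1 of 728 (95% counting interval 201 to 6018). Of the T and NK cell list, 12 of 27 genes were tested, with 5 higher in SKM-1 and 4 in MUTZ-1. LCK, a kinase that T cells and some B cells use, was at 51.1, 52.7 and 48.8 CPM in MUTZ-1 and 0.125, 0 and 0 CPM in SKM-1, whereas CD3D, a T-cell receptor chain, had no count in MUTZ-1 and was at 2.82, 3.53 and 2.48 CPM in SKM-1.

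Epithelial markers that passed the filter were mostly higher in SKM-1. Of 10 tested epithelial markers (22 listed), 8 were at least 2-fold higher there, none in MUTZ-1, and all 8 stood, with a median of -7.67 against -9.15 in control. KRT8, a keratin, was at 334, 339.8 and 327 CPM in SKM-1 and 0.586, 0.382 and 0.0595 CPM in MUTZ-1. KRT18, its partner, differed by -9.59 ± 0.37. EPCAM, an epithelial adhesion molecule that erythroid progenitors also carry, was at 74.9, 76.7 and 74.7 CPM and 0.176, 0.0636 and 0.0595 CPM. VIM, the intermediate filament of leukocytes and mesenchyme, was at 1114, 1124 and 1119 CPM in SKM-1 and 1.93, 1.40 and 1.31 CPM in MUTZ-1. Its difference was -9.49 ± 0.17 after knockdown and -9.41 in control. FN1, fibronectin, differed by -8.99 ± 0.39, and SPARC, a matrix protein, by -8.69 ± 0.55. Among 17 tested fibroblast markers (25 listed) 9 were higher in SKM-1 and 4 in MUTZ-1. Here the median was -3.23, or -1.93 with bounds. Of these 4, SNAI2 had no count in SKM-1 and was at least 111-fold higher in MUTZ-1.

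Neuronal-type genes, often silent in blood, had 12 of 20 tested (30 listed) at least 2-fold higher in SKM-1 and 6 in MUTZ-1, and 11 and 2 of these stood. NEFH, a neurofilament, was at 62.6, 64.6 and 65.1 CPM in SKM-1 and 0.117, 0 and 0.0595 CPM in MUTZ-1, and NTS, a neuropeptide, had a ratio of SKM-1 to MUTZ-1 of 1687 (95% counting interval 302 to 66665). ENO2, the neuronal enolase, differed by -3.36 ± 0.12. UCHL1, a ubiquitin hydrolase of neurons, was at 409.5, 408 and 407 CPM in MUTZ-1 and 13.8, 14.4 and 13.3 CPM in SKM-1, but at 341, 345 and 348 CPM in control SKM-1, so that its difference was 4.88 after knockdown and 0.38 in control. The list's median was -3.63, or -1.53 with bounds. Of 6 tested endothelial markers (15 listed), 3 were higher in SKM-1 and 1 in MUTZ-1, and EGFL7, a secreted factor of vessels, had a ratio of SKM-1 to MUTZ-1 of 1649 (95% counting interval 564 to 7999.9).

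**Figure D3:**
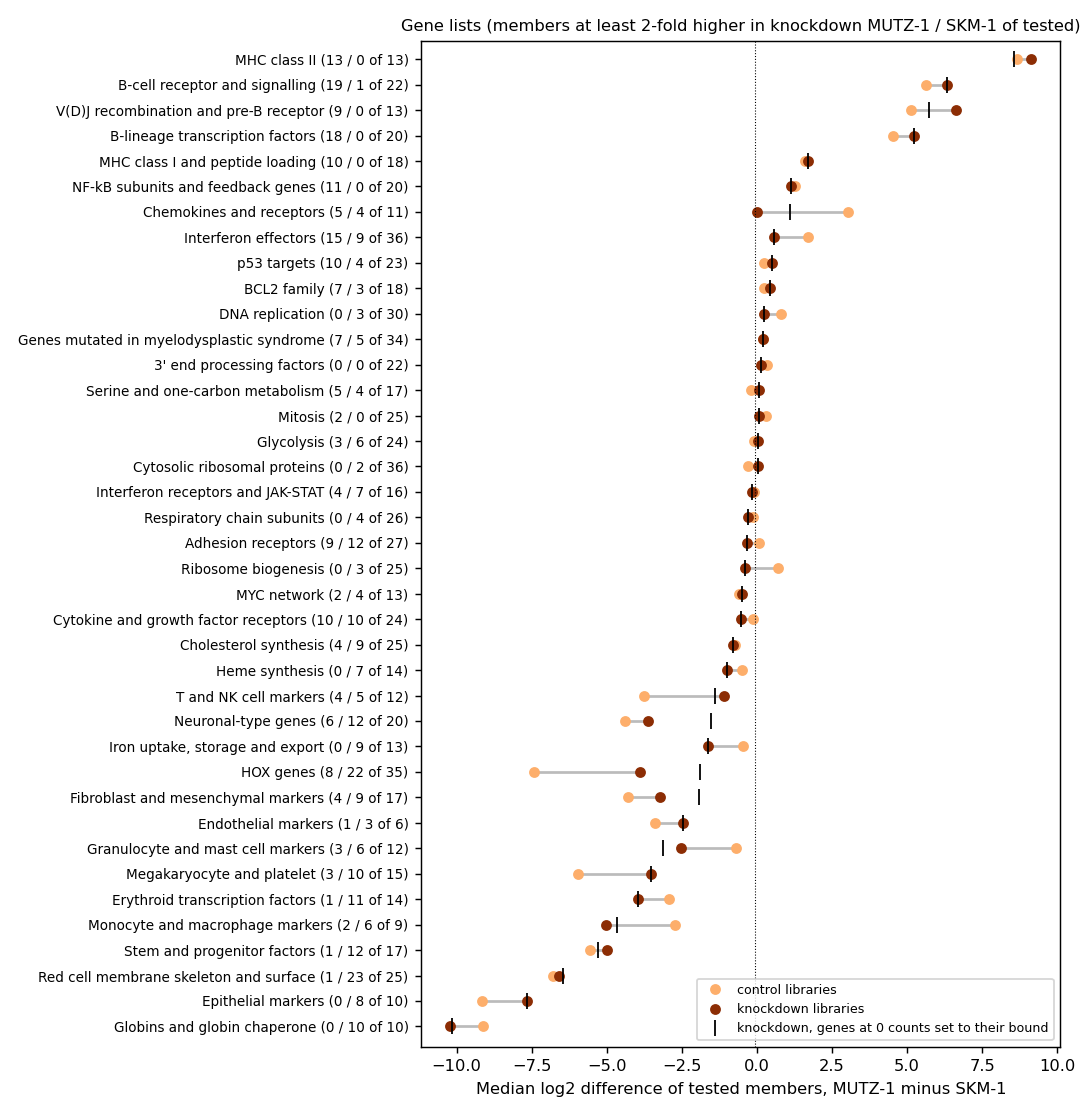
Median log2 difference, MUTZ-1 minus SKM-1, of the tested members of gene lists with at least 5 tested members, in the control libraries (light) and the knockdown libraries (dark), with black ticks where genes at no count in 1 line were set to their bounds. The dotted line is the median of all genes tested, -0.08, and B-lineage and class II lists lie at the right, erythroid, epithelial and stem cell lists at the left.

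Interferon effectors, antiviral genes, were divided between the lines. Of 36 tested (37 listed), 15 were at least 2-fold higher in MUTZ-1 and 9 in SKM-1, 13 and 5 stood, and the median was 1.70 in control and 0.57 after knockdown. OAS2, an RNA sensor, was at 58.2, 53.9 and 58.7 CPM in MUTZ-1 and 0.251, 0.0598 and 0 CPM in SKM-1. SAMD9, TRIM22 and ISG20, restriction factors, were higher in MUTZ-1 by 2.69 ± 0.08, 7.02 ± 0.37 and 6.62 ± 0.35. MX1, an antiviral GTPase, was at 6.03, 6.11 and 5.47 CPM in knockdown and 224, 231 and 231 CPM in control MUTZ-1. SKM-1 held 2 counts of MX1 after knockdown, a ratio of 143 (95% counting interval 39.3 to 1188). IFITM1, a membrane protein that blocks viral entry, was in contrast at 488, 495 and 471 CPM in SKM-1 and 0.293, 0.382 and 0.417 CPM in MUTZ-1. IFITM3, its neighbour in the family, differed by -5.66 ± 0.12. IFI27, chosen after its values were seen because it was the member that turned, was at 0.176, 0.127 and 0.0595 CPM in MUTZ-1 and 3.38, 3.47 and 3.41 CPM in SKM-1, a difference of -4.74 after knockdown against 1.85 in control, with a term of -6.59 ± 0.80.

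NF-kB subunits and feedback genes were higher in MUTZ-1 for 11 of 20, none in SKM-1, and 10 stood, with a median of 1.12 (1.28 in control). BIRC3, an inhibitor of cell death that NF-kB induces, was at 239, 233 and 229 CPM and 1.75, 2.09 and 2.48 CPM. RELB was at 121, 126 and 122 CPM and 1.38, 2.63 and 1.05 CPM, and REL, the subunit typical of B cells, differed by 2.76 ± 0.09. TRAF3, a brake on the alternative pathway, was 1.28 ± 0.04 higher in MUTZ-1.

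Receptors divided evenly, with 10 of 24 tested cytokine and growth factor receptors (35 listed) at least 2-fold higher in each line. IL7R, the receptor on which B-cell precursors depend, was at 51.4, 50.3 and 52.5 CPM in MUTZ-1 with 1 count in SKM-1, a ratio of 2510.5 (95% counting interval 450.2 to 99196). IL21R, another lymphoid receptor, differed by 9.04 ± 0.65. INSR, the insulin receptor, was at 141, 145 and 148 CPM in MUTZ-1 and 2.88, 2.21 and 3.10 CPM in SKM-1, and IGF1R, its relative, at 97.6, 101 and 104 CPM and 14.3, 17.3 and 14.5 CPM. Both were more alike in the control libraries, where the differences were 1.97 and 0.20. FGFR3, a fibroblast growth factor receptor, was higher in SKM-1, at 83.6, 76.4 and 81.4 CPM against 0.234, 0.0636 and 0 CPM. CXCR4, the homing receptor for marrow, was at 467, 481 and 471 CPM in MUTZ-1 and 1.75, 1.73 and 1.30 CPM in SKM-1. In control SKM-1 it was at 63.8, 58.2 and 62.3 CPM, and its difference was 3.03 in control and 8.20 after knockdown, a term of 5.17 ± 0.17. The chemokine list had 11 of 24 genes tested, 5 of them at least 2-fold higher in MUTZ-1 and 4 in SKM-1, and all 9 stood.

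Among adhesion receptors, 12 of 27 tested (28 listed) were at least 2-fold higher in SKM-1 and 9 in MUTZ-1. ITGB1, the beta-1 integrin, was at 287, 288 and 307 CPM in SKM-1 and 40.9, 38.6 and 41.7 CPM in MUTZ-1, and the term of -0.11 ± 0.06 did not pass. ITGA5, the fibronectin receptor, differed by -7.54 ± 0.30, and ICAM4, an erythroid adhesion molecule, had 1 count in MUTZ-1 and a ratio of 2259.9 (95% counting interval 405 to 89301). F11R, a junction protein, differed by -1.28 ± 0.04. The laminin receptor ITGA6 was 5.08 ± 0.16 higher in MUTZ-1 after knockdown and 0.80 in control. ITGA4, of lymphocyte homing, had a difference of 6.44 in control and a smaller 2.89 after knockdown.

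Genes recurrently mutated in myelodysplastic syndrome were tested for 34 of 35, of which 7 were at least 2-fold higher in MUTZ-1 and 5 in SKM-1. CUX1, RAD21 and SMC3 were higher in MUTZ-1 by 2.45 ± 0.03, 1.20 ± 0.03 and 1.14 ± 0.03, the last pair being cohesin subunits. Of 23 tested p53 target genes (24 listed), 10 were at least 2-fold higher in MUTZ-1 and 4 in SKM-1, with a median of 0.52. CDKN1A, the p21 inhibitor, was at 159, 155 and 156 CPM in MUTZ-1 and 3.88, 4.01 and 3.72 CPM in SKM-1, and MDM2 and BTG2 differed by 1.86 ± 0.03 and 3.82 ± 0.05. FDXR, a mitochondrial reductase on the list, was higher in SKM-1, with a difference of -2.04 ± 0.06.

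The BCL2 family, which decides on cell death, had 7 of 18 tested genes (19 listed) higher in MUTZ-1 and 3 in SKM-1. BCL2 was at 33.2, 33.3 and 33.1 CPM in MUTZ-1 and 2.07, 3.83 and 3.85 CPM in SKM-1. BCL2L1, the erythroid survival factor Bcl-xL, showed the opposite order, at 60.0, 63.6 and 59.2 CPM and 192, 186 and 187 CPM. The lines did not overlap for either gene, with differences of 3.35 ± 0.13 and -1.63 ± 0.04. PMAIP1 and BMF, both death activators, were higher in MUTZ-1 by 3.14 ± 0.07 and 3.83 ± 0.13, and BCL2L2, a survival factor, differed by -3.65 ± 0.13.

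MYC, a driver of growth, differed less between the lines after knockdown than in control. In the knockdown libraries it was at 410, 418 and 423 CPM in MUTZ-1 and 459.5, 472 and 465 CPM in SKM-1, a difference of -0.16 ± 0.02. The control libraries held 393, 410.3 and 398 CPM and 2104, 2128 and 2187 CPM, a difference of -2.42, and the term was 2.26 ± 0.03 (adjusted p = 4.22e-150). Ribosome biogenesis genes, known as MYC targets, had 3 of 25 tested genes at least 2-fold higher in SKM-1 and none in MUTZ-1, and their median was -0.41 after knockdown against 0.70 in control. DDX21, a nucleolar helicase, was at 415, 401 and 412 CPM in MUTZ-1 and 894, 871 and 891 CPM in SKM-1, with a control difference of 0.83. POLR1C and RRP9, of ribosomal RNA synthesis and processing, differed by -1.17 ± 0.05 and -1.12 ± 0.06. The MYC network, with 13 genes tested, had 4 at least 2-fold higher in SKM-1 and 2 in MUTZ-1, among them MAX, the partner of MYC, with a difference of -1.09 ± 0.05, and MXD3, a competitor for MAX, with 2.23 ± 0.11.

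Few genes of growth and division reached 2-fold, against 45.2% of all genes tested. DNA replication had 3 of 30 genes past 2-fold, all higher in SKM-1, with a median of 0.25 (0.79 in control), and CDC45, a helicase factor, was the furthest, at 67.3, 68.2 and 65.8 CPM in MUTZ-1 and 409, 423 and 414 CPM in SKM-1. Mitosis had 2 of 25, both higher in MUTZ-1, and cytosolic ribosomal proteins 2 of 36, both higher in SKM-1. UBE2C, a ubiquitin enzyme of mitotic exit, was at 115, 121 and 121 CPM in MUTZ-1 and 5.26, 4.25 and 3.47 CPM in SKM-1, with a term of 4.04 ± 0.11 against a control level of 90.8, 93.4 and 92.3 CPM in SKM-1. KIF11, a spindle motor, differed by 1.07 ± 0.03.

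Metabolic lists differed by single enzymes more than as wholes. Cholesterol synthesis was higher in SKM-1 for 9 of 25 genes and in MUTZ-1 for 4, with a median of -0.81. DHCR7, an enzyme of the last steps, differed by -1.85 ± 0.04, and of the regulators SREBF1 was -1.91 ± 0.04 and SREBF2 1.21 ± 0.03. Of 24 tested glycolysis genes (25 listed), 6 were higher in SKM-1 and 3 in MUTZ-1. HK1, the first kinase of the pathway, was at 75.0, 72.7 and 75.6 CPM in MUTZ-1 and 1149.8, 1139 and 1149 CPM in SKM-1, and PKLR, the pyruvate kinase of liver and red cells, at 0.117, 0.191 and 0.119 CPM and 169, 169 and 163 CPM. PKM, the pyruvate kinase of other cells, was higher in MUTZ-1 by 1.40 ± 0.02. Serine and one-carbon metabolism had 5 of 17 genes higher in MUTZ-1 and 4 in SKM-1. PHGDH, the entry enzyme of serine synthesis, was at 499, 496 and 488 CPM in MUTZ-1 and 23.8, 27.1 and 27.4 CPM in SKM-1, whereas control SKM-1 held 388, 391 and 390.4 CPM, a term of 3.94 ± 0.05. Of 26 respiratory chain subunits 4 were at least 2-fold higher in SKM-1 and none in MUTZ-1, at a median of -0.29.

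The genes furthest apart, among those averaging 5 CPM or more whose groups did not overlap, were mostly at no count in 1 line, where folds are lower bounds against a floor of 3 counts over the group. Toward MUTZ-1, TNFSF8, the ligand of the lymphoid receptor CD30, led at 99.6, 97.3 and 99.8 CPM, at least 1609-fold higher. SIT1, a lymphocyte signalling adaptor, was at least 725-fold higher, the class II regulator HLA-DOA 539-fold, and the class II chain HLA-DQA1 456-fold. CADPS, of vesicle release, was at least 535-fold higher, C14orf132 493-fold, ZNF831 472-fold, FAM221B 458-fold and the receptor GPR18 447-fold. ZHX2, a zinc finger repressor, had 1 count in SKM-1 and a ratio of 5791 (95% counting interval 1039 to 228790). All 10 of these stood.

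Toward SKM-1, ST6GALNAC1, a sialyltransferase, led at 62.2, 58.7 and 59.6 CPM, at least 995-fold higher. ZFPM2, a cofactor of GATA proteins, was at least 911-fold higher, PNMA8A 889-fold, and ANGPT1, a ligand made by stem cells and platelets, 803-fold. AKR1C2, a steroid reductase, COL6A5, a collagen, GYG2, a primer of glycogen, and ZNF280A were at least 648-fold, 604-fold, 601-fold and 555-fold higher. KRT19 and TUSC3, a subunit of the glycosylation complex, had 1 count each in MUTZ-1. KRT19 was at 132, 130.4 and 131 CPM in SKM-1, a ratio of 6493 (95% counting interval 1165 to 256507). All 10 stood here too.

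By gap in CPM the leading genes toward MUTZ-1 were housekeeping genes. GAPDH was at 5192, 5303 and 5147 CPM and 3029, 3041 and 3029 CPM, and ACTB, beta-actin, at 4948, 5099.8 and 5075 CPM and 3347, 3449 and 3399 CPM. PTMA, PKM and PPIA followed, with differences of 1.41 ± 0.02, 1.40 ± 0.02 and 0.87 ± 0.02. ACTB had been 2.05 higher in MUTZ-1 in control and was 0.57 higher after knockdown. Toward SKM-1, FTL was followed by the chaperone HSP90AB1 (-1.11 ± 0.02), the elongation factor EEF1A1 (-0.33 ± 0.02), the chaperone HSPA8 and the tumour antigen PRAME. PRAME was at 2209, 2262 and 2227 CPM in SKM-1 and 2.93, 1.53 and 1.61 CPM in MUTZ-1, a difference of -10.09 ± 0.15.

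Line differences that turned were read from the genes with the largest terms that averaged 5 CPM or more. Of the 302 that turned toward MUTZ-1, 301 were lower in SKM-1 after knockdown and 273 higher in MUTZ-1, by mean CPM. ZNF704, a zinc finger gene, was at 92.9, 93.7 and 93.2 CPM in knockdown MUTZ-1 and 2.32, 2.21 and 1.80 CPM in knockdown SKM-1, against 29.0, 30.0 and 35.6 CPM and 87.4, 87.0 and 81.5 CPM in the controls. SRCIN1, an inhibitor of SRC, was at 8.96, 10.5 and 9.64 CPM and 0.0626, 0.419 and 0.496 CPM after knockdown and at 4.02, 3.22 and 3.51 CPM and 17.2, 15.6 and 16.0 CPM in control. Every library of the higher line lay above every library of the lower one in both pairs, in opposite order. GRAMD1C, a cholesterol transporter, was 5.56 after knockdown and -1.24 in control, NRN1, a neurite factor, 1.00 and -5.70, and PHLDB2, of cell attachment, 3.07 and -3.63. HOXA13 of the HOX list turned as well, from -3.19 to 2.58.

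Turning toward SKM-1 was seen for 15 genes. HSPA8, the constitutive heat shock chaperone, was at 1880.3, 1875 and 1844 CPM in knockdown MUTZ-1 and 4126, 4226 and 4149 CPM in knockdown SKM-1, against 2736, 2787 and 2747 CPM and 1357, 1318 and 1338 CPM in the controls. Its difference went from 1.04 to -1.16. SLC38A5, an amino acid transporter, went from 1.29 to -1.79, and PARP14, an interferon-induced enzyme, from 1.17 to -2.81. ZDHHC14, a palmitoyltransferase, went from 1.33 to -1.18. NRROS, a regulator of TGF-beta and of oxygen radicals, was at 7.97, 8.27 and 7.26 CPM in knockdown MUTZ-1 and 30.8, 31.3 and 31.9 CPM in knockdown SKM-1, against 28.4, 27.1 and 29.9 CPM and 6.23, 5.26 and 5.57 CPM in the controls.

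**Figure D4:**
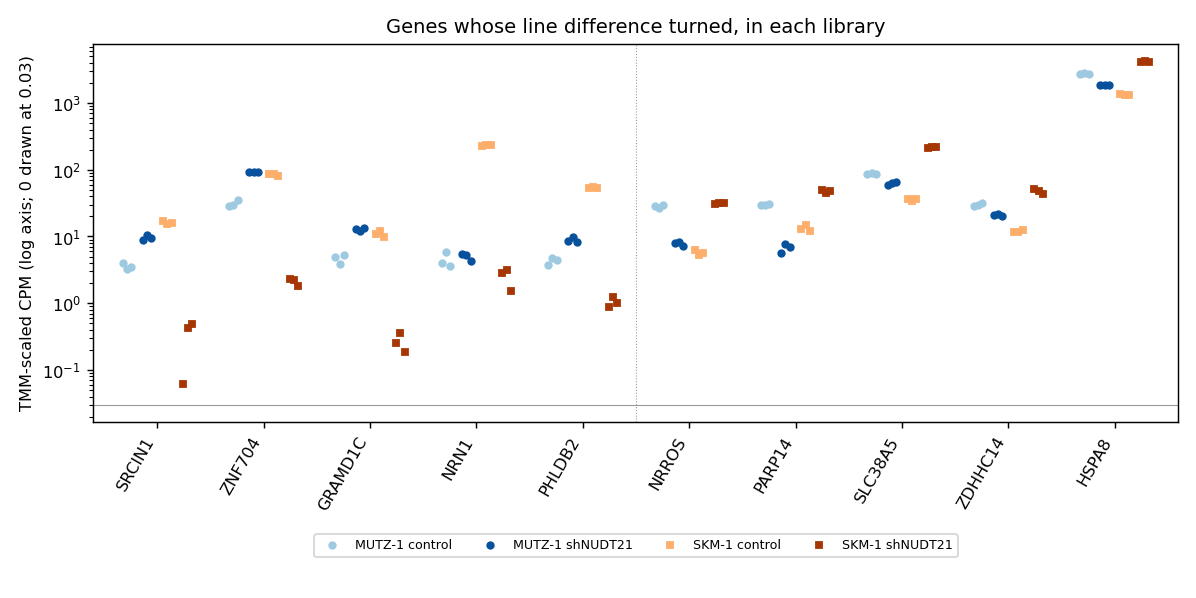
CPM on a log axis (0 drawn at 0.03) of the 10 genes with the largest turns in each of the 12 libraries, circles for MUTZ-1 and squares for SKM-1, light for control and dark for knockdown. For the 5 genes on the left the SKM-1 squares drop from above the MUTZ-1 circles to below them after knockdown, and for the 5 on the right they rise from below to above.

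Differences were also read by chromosome, over 8322 autosomal genes that averaged 5 CPM or more in both knockdown lines, with positions from GENCODE 29 for 13297 of the 13625 genes. Over all of these genes the median log2 difference was 0.02 after knockdown and 0.15 in control. Chromosome 13 had the highest median after knockdown, 0.67 over 146 genes, against -0.22 in the control libraries. Chromosome 21 had the lowest, -0.32 over 81 genes, against 0.38 in control, and chromosome 6 was at -0.31 against 0.13. Chromosome 7 was at 0.33 against 0.85, chromosome 18 at 0.42 against 0.44 and chromosome 22 at 0.28 against 0.26. A change of sign between the pairs was not particular to chromosomes 13, 21 and 6. It was also seen, for example, on chromosome 1, at -0.02 against 0.30, and chromosome 19, at -0.07 against 0.31. Copy number was not measured, and its part in these medians was not tested.

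**Figure D5:**
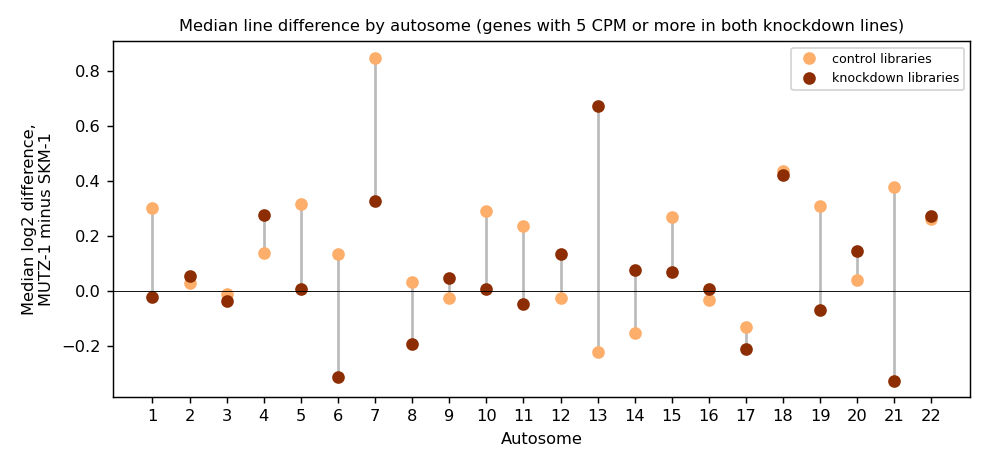
Median log2 difference, MUTZ-1 minus SKM-1, per autosome over genes with at least 5 CPM in both knockdown lines, for control libraries (light) and knockdown libraries (dark). Many autosomes lie on opposite sides of 0 in the 2 pairs, chromosomes 1, 6, 11, 13, 14, 19 and 21 among them. Chromosomes 2, 18 and 22 are nearly the same in both.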

How the data were processed

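RNA from 2 lines, each with a control or a NUDT21 shRNA (3 libraries a group), was measured by RNA-seq with a stranded mRNA kit, per the labels' protocols. Per the submitters' processing notes, the tools were fastp, HISAT2 and HTSeq and the build GRCh38; versions, annotation, strand setting and the handling of multiply matched reads are not stated in the sources used here. The authors' deposited table gives whole read counts for 17518 genes, taken unchanged. The authors' deposited FPKM values, a count scaled by library total and gene length, were used for levels per length and as alternatives. In R 4.3.3, edgeR 4.0.16 filtered the counts with filterByExpr on the 4 groups (13625 genes kept), scaled them with trimmed means of M values and fitted 1 quasi-likelihood model with robust shrinkage to all 12 libraries (8 residual degrees of freedom). Contrasts were knockdown MUTZ-1 minus knockdown SKM-1, the same for control, and their difference, at an adjusted p of 0.05 over all genes tested. The code was tested on simulated data. The SE of a log2 difference comes from the fitted means and dispersions and the quasi-likelihood variance, taken as at least 1, so that it covers counting error. Where a group had no count, a fold was bounded with 3 counts over the group. Ratios with 1 to 3 counts carry 95% intervals.

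Total counts ran from 15843012 to 18426619 per library. At this depth 3 counts over a knockdown group correspond to about 0.06 CPM. Library numbers did not pair the samples. Named genes were NUDT21, CPSF6 and CPSF7, per direction the 10 with the largest log2 difference and the 5 with the largest gap in CPM, per direction the 5 with the largest turn, up to 4 members a list in its more frequent direction and up to 2 in the other, and a set of lineage genes. Outside this rule LEF1, IFI27, MX1, HBB, SLC40A1, HOXC4, HOXA13, EPOR and CSF1R were chosen after their values were seen. Some genes of the lists are not reported here by name. The 39 gene lists and the comparison itself were chosen with earlier results of these data known. Alternatives were DESeq2 1.42.0, size factors, library totals, no filter, the 6 knockdown libraries alone, a replicate block, a test against 2-fold, limma 3.58.1 on log2(FPKM + 1) and log2(FPKM + 0.1), and leaving out each library.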

Additional observations from a re-analysis of the deposited data

Results flagged for a closer look

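For 10 genes the line difference after knockdown and that in the control libraries were both at least 2-fold and pointed in opposite directions, and the difference between them passed the quasi-likelihood test of edgeR with adjustment after Benjamini and Hochberg. They are the 5 with the largest such term in each direction, among turned genes averaging 5 CPM or more. Opposite 2-fold differences make the term large by selection, so its adjusted p-values add no separate support. Terms toward MUTZ-1, knockdown minus control on the log2 scale, were 7.03 for SRCIN1, 6.895 for ZNF704, 6.80 for GRAMD1C, 6.71 for NRN1 and 6.70 for PHLDB2, with adjusted p-values from 2.33e-133 for ZNF704 to 1.05e-52 for NRN1. Terms toward SKM-1 were -4.32 for NRROS, -3.97 for PARP14, -3.09 for SLC38A5, -2.51 for ZDHHC14 and -2.20 for HSPA8. NRN1 was at only 5.51, 5.28 and 4.28 CPM in knockdown MUTZ-1 and 2.82, 3.11 and 1.55 CPM in knockdown SKM-1, and its difference of 1.00 sat at the 2-fold limit. Its turn came mostly from SKM-1, which held 229, 231 and 236 CPM in the control libraries.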

How the results depend on the processing

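Scaling by size factors or library totals moved the median of all genes by at most 0.042 on the log2 scale, and DESeq2, no filter on low counts, a test against 2-fold and the 6 knockdown libraries alone kept every count within 1.5 times its value. Counts moved further on FPKM. In the log2 values of FPKM the pseudocount lowers the differences of low genes. With log2(FPKM + 1), 1790 genes were at least 2-fold higher in MUTZ-1 and 2001 in SKM-1, 336 and 467 at least 8-fold, 928 and 1338 stood, and 83 turned. With log2(FPKM + 0.1), 1215 were at least 8-fold higher in SKM-1. By FPKM in place of CPM, with no pseudocount and the same limits of 10 and 1, 336 genes were restricted to SKM-1. A library left out gave 5552 to 5653 genes higher in MUTZ-1 and 6225 to 6361 in SKM-1, 2732 to 2748 and 3352 to 3407 at 2-fold, 1409 to 1463 and 2699 to 2764 standing, and 307 to 333 turned. Of 240 named genes tested, NUDT21 lost its call in 3 of its alternatives, size factors (adjusted p 0.251), DESeq2 and leaving out the third MUTZ-1 knockdown library, and the others kept theirs in all that were run.

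Libraries with the same number did not deviate together, with correlations of -0.07 to 0.03 over 18 pairs of the same number and -0.06 to 0.10 for different numbers. With the replicate block, 5640 genes were higher in MUTZ-1 and 6329 in SKM-1, 2747 and 3394 at 2-fold, 1458 and 2738 stood, and 317 turned. Depth limits statements on genes at no count to bounds.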
